A study of Mus musculus with 2 samples.

Results

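The 8 genes described here carry fatty acids from the blood into cells, release them from lipoproteins, store them in droplets or desaturate them: Cd36, Fabp4, Fabp5, Lpl, Gpihbp1, Plin2, Pparg and Scd1. They were taken by name, as 8 of 15526 gene rows, and all 8 were found. The cells were mCherry-positive lung cells sorted by flow cytometry from C57BL/6 p16-FDR mice aged 20 to 22 months. All carried the p16-FDR allele, which encodes a mammalian-optimised FLP recombinase and an mCherry-tagged receptor for diphtheria toxin. p16, the cell-cycle inhibitor encoded by Cdkn2a, is used as a marker of senescence. The samples form 1 group of 2, and mCherry-negative, young or reporter-free cells were not analysed here, so the comparisons are between cell types inside the sorted population. Whether a sample held cells of 1 mouse or of several is not stated in those labels.

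The table held 1344 cells in 2 sequencing libraries, 1145 in library 1 (median of 5631 UMIs, molecules counted by unique identifiers, in a cell) and 199 in library 2 (median of 6716). Neither library could be matched to a sample, so both were pooled as 1 sample without any test across samples, and values of each library are given beside the main pooled ones. A level is given as the summed UMIs of a gene per 10000 UMIs of the cells, called the rate, with its exact Poisson interval at 95% in brackets. These intervals cover counting error only, and not differences between cells or between mice. Cells were grouped into 11 classes by clustering without the 8 genes and without the pathway lists used below. Of 604 endothelial-like cells, library 1 gave 450 and library 2 gave 154. At least 1 Cdkn2a UMI was present in 328 of those 604, and mCherry in 60, against 121 and 13 of the 740 other cells.

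Long-chain fatty acids reach tissues bound to albumin or as triglycerides in lipoproteins. Lipoprotein lipase (Lpl) frees fatty acids at the capillary wall, where the endothelial protein Gpihbp1 carries and anchors it, and the scavenger receptor Cd36 helps cells to take them up. Inside the cell, the binding proteins Fabp4 and Fabp5 carry them, Plin2 coats the droplets that store them, Scd1 adds a double bond to saturated ones, and the nuclear receptor Pparg drives many of these genes in fat cells and in alveolar macrophages, which clear surfactant lipid.

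Coordinates are those of GRCm38 in the GENCODE annotation. Cd36 spans chromosome 5 from 17781690 to 17888801 on the minus strand, and Plin2 chromosome 4 from 86648386 to 86670060 on the minus strand. Fabp4 (chromosome 3, 10204088 to 10208576, minus strand) and Fabp5 (chromosome 3, 10012548 to 10016607, plus strand) lie on the same chromosome. Lpl lies on chromosome 8 from 68880491 to 68907448 (plus strand), Gpihbp1 on chromosome 15 from 75596628 to 75599481 (plus strand), Pparg on chromosome 6 from 115360951 to 115490399 (plus strand) and Scd1 on chromosome 19 from 44394455 to 44407879 (minus strand). Pparg overlaps 1 annotated gene on the other strand and the other 7 overlap none. Mouse Fabp5 has processed pseudogene copies, and the counting of reads shared with them is not stated.

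RefSeq promoters (build GRCm38.p6, 250 bases before to 50 after a start site) were at hand for 3 of the 8 genes: Cd36, Plin2 and Pparg. Those of Cd36 and Plin2 are shown because both genes are known targets of PPAR receptors and yet, as described below, had their highest levels in different cell classes. The Cd36 promoter shown belongs to a start site inside the annotated gene, which on the minus strand begins at 17888801. Which start site these cells used was not tested. Capitals mark the PPAR half-site AGGTCA on either strand; it reads TGACCT where it lies on the other strand.
Cd36 promoter, chr5:17835847-17836146, minus strand: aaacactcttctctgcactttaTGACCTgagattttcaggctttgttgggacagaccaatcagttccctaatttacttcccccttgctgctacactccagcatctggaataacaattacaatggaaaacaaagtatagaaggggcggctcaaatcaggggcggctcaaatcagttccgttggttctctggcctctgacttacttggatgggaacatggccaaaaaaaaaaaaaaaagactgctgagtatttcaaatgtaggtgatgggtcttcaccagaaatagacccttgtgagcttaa
Plin2 promoter, chr4:86670010-86670309, minus strand: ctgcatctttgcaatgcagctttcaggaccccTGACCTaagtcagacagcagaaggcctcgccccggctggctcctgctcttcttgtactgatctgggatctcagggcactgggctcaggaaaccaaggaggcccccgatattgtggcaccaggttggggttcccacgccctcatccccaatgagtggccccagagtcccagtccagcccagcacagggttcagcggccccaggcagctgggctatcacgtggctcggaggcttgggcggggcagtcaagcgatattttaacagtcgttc
Each promoter held 1 half-site, at position -228 from the start site in Cd36 and -218 in Plin2. Of the 3 Pparg promoters, 2 held it as well. The half-site occurred in 16.3% of all 32851 promoters of this length (5340), and the full direct repeat AGGTCANAGGTCA, which contains the half-site and was in none of these 5 promoters, in 0.0396% (13).

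**Figure D1:**
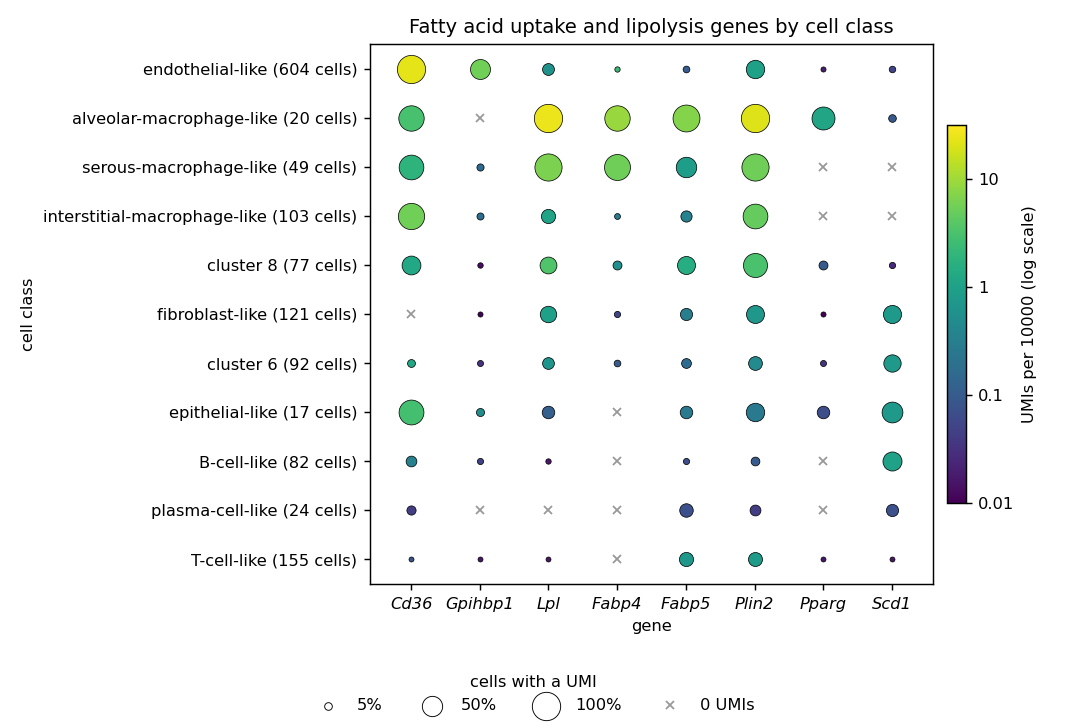
Level of the 8 genes in 11 cell classes. Colour gives UMIs per 10000 on a log scale, dot area grows with the share of cells with a UMI, and grey crosses mark classes with 0 UMIs; Cd36 and Gpihbp1 peak in endothelial-like cells, Lpl, Fabp4, Fabp5, Plin2 and Pparg in alveolar-macrophage-like cells, and Scd1 in B-cell-like cells, with similar levels in fibroblast-like, cluster 6 and epithelial-like cells.

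Endothelial-like cells, whose identity rested on 15 general endothelial markers, had the highest levels of the uptake receptor and of the lipase anchor, while the lipase itself, the binding protein Fabp5, the droplet coat, Pparg and the desaturase were lower there than in the remaining cells. Against the 740 other cells, 3 of the 8 genes were at least 2-fold higher in endothelial-like cells and 5 at least 2-fold lower; across the 12702 genes compared, 26% were higher and 23.2% lower by this measure. The third of the higher genes, Fabp4, rested on 1 cell, as described further on.

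Cd36 was detected in 599 of 604 endothelial-like cells with a rate of 22.8 (22.4 to 23.3), 22.8 in library 1 and 23.1 in library 2. Within the class the quartiles of single cells were 15.4, 22.3 and 30.4. In the other 740 cells the rate was 1.44 (1.35 to 1.54), which made Cd36 15.8-fold higher in endothelial-like cells (14.8 to 17.0). The classes then followed in the order interstitial-macrophage-like (5.51, 4.98 to 6.08; 88 of 103 cells), alveolar-macrophage-like (3.03, 2.35 to 3.85; 16 of 20 cells), epithelial-like (2.83, 2.35 to 3.36; 13 of 17 cells) and serous-macrophage-like (1.81, 1.47 to 2.20; 37 of 49 cells). The intervals of the alveolar-macrophage-like and epithelial-like classes overlapped, so their order is not resolved. Cluster 8, an unnamed cluster led by Plbd1, Il1b and Mmp12, stood at 1.26 (1.02 to 1.54), and cluster 6, an unnamed cluster led by Col6a3, Acta2 and Myl9, at 1.24 (0.975 to 1.55).

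In fibroblast-like cells Cd36 was found in 0 of 121 (allowing up to 2.48%), and in T-cell-like cells in 1 of 155, at median depths of 7533 and 3606 UMIs. After thinning every cell to 2500 UMIs, the expected shares of cells with a Cd36 UMI were 61.9% in interstitial-, 41.3% in alveolar- and 34.3% in serous-macrophage-like cells, against 0.599% in T-cell-like cells. Each class was also set against the level of endothelial-like cells. In interstitial-macrophage-like cells Cd36 stood at 24.1% of its endothelial level (21.8 to 26.6), while the 15 endothelial markers had a median of 2.29% (0.978 to 9.65). In alveolar-macrophage-like cells Cd36 stood at 13.3% (10.3 to 16.9), with 11 of the 15 markers at 0 and the highest, Esam, at 0.788%. In cluster 8 it stood at 5.50% (4.45 to 6.73), with a median of 0.0535% and 7 markers at 0. In other classes a marker stood higher than Cd36 did: in serous-macrophage-like cells Cd36 was at 7.92% (6.43 to 9.64) and Tek at 8.83%, with a marker median of 1.16%. In epithelial-like cells Cd36 was at 12.4% (10.3 to 14.7) and Ptprb at 26.8%, with a median of 4.55%, and in cluster 6 Cd36 was at 5.42% (4.27 to 6.78) and Eng at 10.5%, with a median of 3.56%. In B-cell-like cells Cd36 was at 1.45% and Pecam1 at 4.46%, in T-cell-like cells Cd36 was at 0.362% and Pecam1 at 2.80%, and in fibroblast-like cells Cd36 had 0 UMIs and Tek was at 15.9%.

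In cluster 6, Cd36 came from 5 of 92 cells. In those 5 cells the summed rate of the 15 endothelial markers was 96.3, against 2.05 in the 87 cells without Cd36 and 292 in endothelial-like cells. In interstitial-macrophage-like cells that rate was 6.68 in the 88 cells with Cd36 and 0.726 in the 15 without, and in serous-macrophage-like cells 4.73 in the 37 cells with Cd36 and 1.2 in the 12 without. Alveolar-macrophage-like cells had 0.309 in the 16 cells with Cd36 and 1.5 in the 4 without. In epithelial-like cells the marker rate was 15.5 in the 13 cells with Cd36 and 0.837 in the 4 without. In B-cell-like cells it was 17.9 in the 10 cells with Cd36, against 0.967 in the 72 without. The T-cell-like cell with Cd36 had 67.3, against 0.835 in the 154 without. The part of endothelial RNA or of mixed droplets in the Cd36 level of these classes was not tested. The 3 genes whose level over the 13 clusters was most like that of Cd36 were Ehd4, Tdrd7 and Tbc1d22a (Pearson r of 0.91, 0.91 and 0.90, over clusters of the same libraries).

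Gpihbp1 had the largest ratio of the 8 between endothelial-like and other cells. It was found in 292 of 604 endothelial-like cells, at a rate of 5.58 (5.34 to 5.83), and in 14 of the 740 other cells, at 0.0859 (0.0643 to 0.112). It was therefore 64.9-fold higher in endothelial-like cells (49.4 to 87.0). Of the 53 UMIs outside the endothelium, 23 came from 1 epithelial-like cell. Alveolar-macrophage-like cells held it in 0 of 20, allowing up to 15%. Its rate was 6.65 in library 1 and 3.05 in library 2. Kif26a, Acer2 and C130074G19Rik followed it most closely over the clusters (r of 0.98, 0.97 and 0.97), all with their highest rate in the same endothelial-like cluster.

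The endothelial-like cells fell into a Car4-high set of 457 cells and a Vwf-high set of 147, after a new clustering that again left out the 8 genes. Car4 encodes a carbonic anhydrase that marks the large gas-exchange capillary cells of the mouse lung, and Vwf encodes the von Willebrand factor of larger vessels. The Car4-high cells had a rate of 35.0 for Car4 and 0.108 for Vwf, and the Vwf-high cells 13.1 for Car4 and 5.50 for Vwf. The Vwf-high set was a mixture. In at least 10% of its cells, 10 of 10 Car4-high capillary and 9 of 9 general-capillary markers were found. The same held for 4 of 8 arterial and 3 of 9 venous or larger-vessel markers. Mean shares of cells with a marker were 62.7%, 72.0%, 31.9% and 15.6% for these lists in turn. The set was named for Vwf, although capillary markers were the most widely found in it. A Car4-dominated gate held 81 of its cells, a Vwf-dominated gate 42, and 21 cells in neither gate had a Gpihbp1 UMI. In the Car4-high set, 1 subcluster of 127 cells came from library 2 alone and 1 of 224 cells from library 1 but for 1 cell.

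Car4-high cells carried slightly more of the uptake receptor and much less of the lipase. Cd36 had a rate of 24.3 (23.7 to 24.9) in Car4-high cells, against 19.9 (19.1 to 20.7) in Vwf-high cells, a ratio of 1.22 (1.16 to 1.28). By library, it was 24.7 and 23.6 in Car4-high cells of library 1 and library 2, against 19.7 and 21 in Vwf-high cells of library 1 and library 2. Plin2 stood at 1.02 (0.901 to 1.16) in Car4-high cells and 0.943 (0.775 to 1.14) in Vwf-high cells, with an interval of the ratio between 0.865 and 1.37. Of the 7 genes that passed the filter on low genes, which Pparg did not, 0 were at least 2-fold higher in Car4-high cells and 5 at least 2-fold lower; of the 10640 genes compared 5.68% were higher and 10.5% lower. The 5 were Lpl, Fabp4, Fabp5, Scd1 and Gpihbp1, the last of which is one of the genes by which the subtypes were described, so that its call is only a description. Fabp4 and Fabp5 passed the filter, a UMI in at least 1% of the cells compared, only through the Vwf-high cells. Their calls are therefore a description as well, and the count of 5 cannot be weighed against the share of all genes.

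Lpl had a UMI in 18 of 457 Car4-high cells, at a rate of 0.0916 (0.0574 to 0.139), against 76 of 147 Vwf-high cells, at 1.60 (1.38 to 1.85). By library, the subtypes did not overlap: 0.0907 and 0.0933 in Car4-high cells of library 1 and library 2, and 1.68 and 1.25 in Vwf-high cells of library 1 and library 2. Lpl was thus 17.5-fold lower in Car4-high cells (ratio of 0.0572, 0.0350 to 0.0892). Between gated subtypes the difference was smaller: Vwf-gated cells had 5.13 times the Lpl rate of Car4-gated cells (3.65 to 7.12). After thinning to 2500 UMIs the expected share of cells with a UMI was 1.80% in Car4-high cells and 29.1% in Vwf-high cells. Within the Vwf-high set, the Car4-gated cells had a rate of 1.33 (1.09 to 1.61), the cells with Gpihbp1 in neither gate 2.97 (1.99 to 4.26) and the Vwf-gated cells 2.05 (1.53 to 2.68), so Lpl was found in each of these 3 parts. As background, the enzyme is known as a product of parenchymal cells and macrophages that is handed over to the endothelium.

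Gpihbp1 was also used to describe the subtypes and to divide the cells in neither gate, so its levels are given only as a description: 1.66 (1.5 to 1.83) in Car4-high cells and 13.6 (13 to 14.3) in Vwf-high cells, with a UMI in 152 of 457 cells and in 140 of 147. Its 7 Vwf-high cells without a UMI included 0 with Lpl, while 76 of the 140 with Gpihbp1 had Lpl. In Vwf-high cells with Lpl the Gpihbp1 rate was 16 (15 to 16.9), against 10.4 (9.52 to 11.4) in those without. Depth was not matched in either split. The 7 cells without Gpihbp1 had a median of 4566 UMIs, against 7425 in the 140 with it. Vwf-high cells with Lpl had a median of 8605.5 UMIs, against 5720 in those without.

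The scarcer genes had few UMIs, and their differences depended on how the subtypes were drawn. Fabp5 had 3 UMIs in 3 Car4-high cells, against 34 UMIs in 17 Vwf-high cells, 15 of them in 1 cell (ratio of 0.0429, 0.00843 to 0.136). Scd1 had 6 UMIs in 6 Car4-high cells, against 12 UMIs in 12 Vwf-high cells (ratio of 0.243, 0.0749 to 0.700). Pparg had 0 UMIs in 457 Car4-high cells (allowing up to 0.656% of cells), against 7 UMIs in 5 Vwf-high cells, with an interval of the ratio up to 0.337. Fabp4 had 1 UMI in Car4-high cells, against 846 in Vwf-high cells, 18 of them outside the single cell described below. Between gated subtypes, the Vwf-gated over Car4-gated ratio was 2.46 for Fabp5 (0.836 to 6.00) and 3.51 for Scd1 (0.841 to 11.2), and both intervals include equal rates; the cell with 15 Fabp5 UMIs lies in the Car4 gate.

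**Figure D2:**
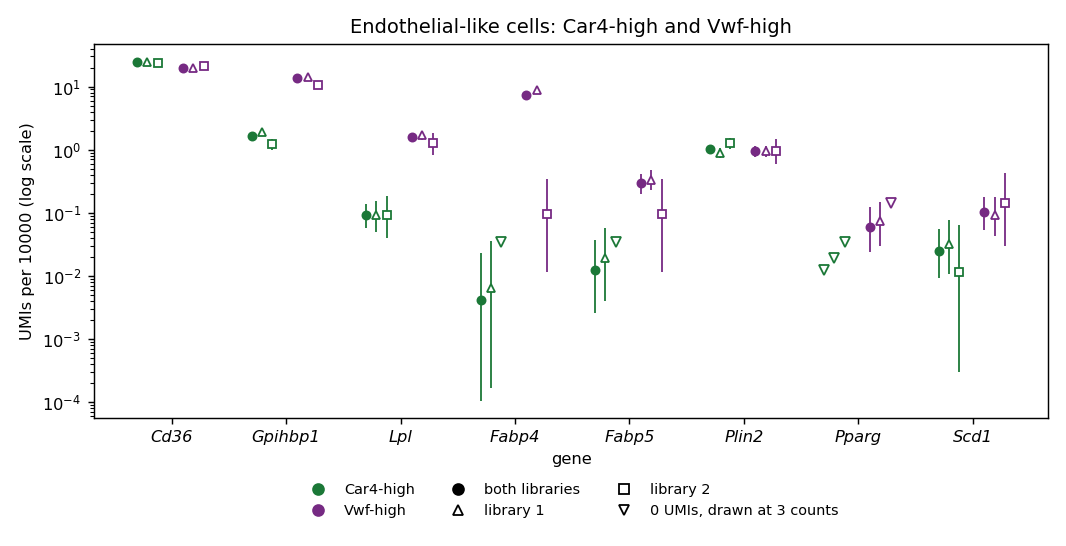
Rates of the 8 genes in Car4-high (green, left) and Vwf-high (purple, right) endothelial-like cells, in UMIs per 10000 on a log axis. Filled points are both libraries, open triangles library 1 and open squares library 2, with exact Poisson intervals, and open downward triangles mark 0 UMIs, drawn at 3 counts; the Lpl and Gpihbp1 points of the subtypes do not overlap in either library, the Cd36 and Plin2 points lie close together, and the Vwf-high Fabp4 point of library 1 rests on 1 cell.

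Inside the Car4-high set, Cd36 was not uniform. The subcluster with the lowest depth (106 cells, median of 3638.5 UMIs) had a Cd36 rate of 32.4 (30.7 to 34.2), against 22.2 (21.3 to 23.1) in the subcluster of 224 cells and 23.2 (22.1 to 24.2) in the subcluster of library 2. Plin2 ran the other way, at 0.515 (0.319 to 0.787) in the low-depth subcluster, against 1.03 (0.853 to 1.23) and 1.27 (1.04 to 1.53). The part of depth in these differences was not tested. Between the libraries, Car4-high cells had a Gpihbp1 rate of 1.21 in library 2 and 1.91 in library 1, and a Plin2 rate of 1.26 in library 2 and 0.894 in library 1.

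Fabp4 in the endothelium rested on a single cell. Of 1419 Fabp4 UMIs in the whole table, 828 (58.4%) came from 1 Vwf-high cell of library 1, in which Fabp4 made up 438 of every 10000 UMIs. The remaining 603 endothelial-like cells held 19 Fabp4 UMIs in 6 cells, and without that cell the endothelial rate was 0.0535 in place of 2.37. The cell had 18891 UMIs, of which 47 were Cd36, 45 Gpihbp1, 15 Fabp5, 4 Plin2, 2 Pparg and 1 Lpl. It carried the endothelial genes Plvap (42 UMIs), Pecam1 (28), Cldn5 (28) and Cdh5 (13). It also held 5 UMIs of Tcf15 and 2 of the 3 Meox2 UMIs of all 604 endothelial-like cells; the products of these genes, as a pair, drive fatty acid transport genes in heart endothelium of the mouse. It held 0 UMIs of Vwf, Cdkn2a and mCherry and 3 of Car4. Besides Fabp4 the genes that stood out most against the other Vwf-high cells were Rbp7, a retinol-binding relative of the Fabp family (103 UMIs there and 7 in the other 146 cells), Inhbb, an activin subunit (12 and 4), Rgcc, a cell-cycle regulator (38 and 26), and Apoe (46 and 32). These 4 genes and Tcf15 were chosen after their values were seen. Whether Tcf15 or Meox2 had a part in the Fabp4 level of this cell was not tested. 

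**Figure D3:**
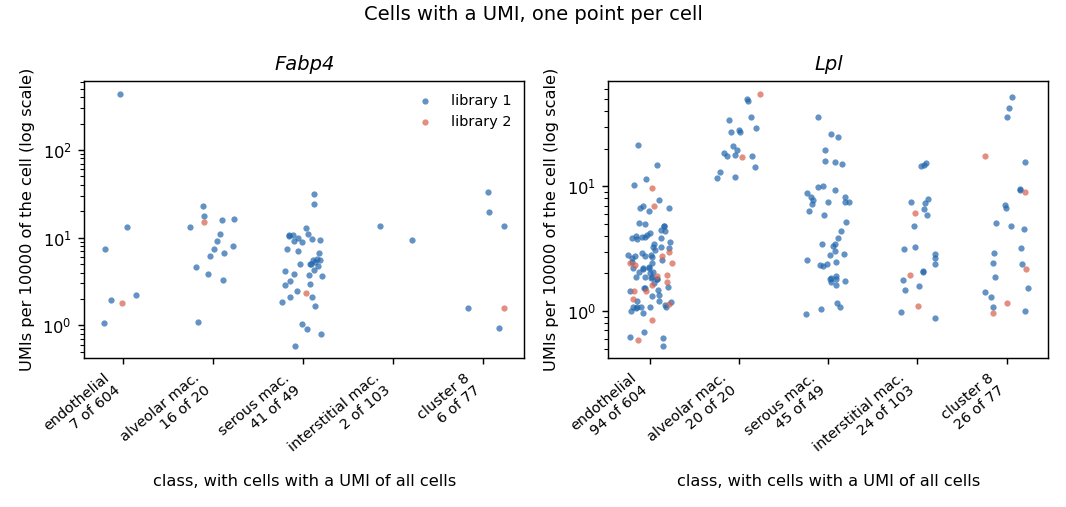
Fabp4 (left) and Lpl (right) in single cells with a UMI, as UMIs per 10000 of the cell on a log axis, in the endothelial-like class, the 3 macrophage-like classes (mac.) and cluster 8; blue points are library 1 and red points library 2. The endothelial Fabp4 signal is 1 cell at 438 among 7 of 604, while Lpl was found in 20 of 20 alveolar-macrophage-like cells, between 11.6 and 55.2.

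Plin2, the droplet coat, was at least 2-fold higher in each of the 3 macrophage-like classes than in the other cells, while the lipase and the binding protein Fabp4 were so in the alveolar- and serous-macrophage-like classes and not in the interstitial one. Over all 172 of their cells, 5 of the 8 genes were at least 2-fold higher than in the other 1172 cells, namely Lpl, Plin2, Fabp4, Fabp5 and Pparg, and Cd36, Gpihbp1 and Scd1 at least 2-fold lower; 11.1% of 12702 genes were higher and 25.7% lower. In alveolar-macrophage-like cells alone the same 5 genes were higher and the same 3 lower, Scd1 on 2 UMIs with an interval of the ratio up to 1.30 and Gpihbp1 on 0 UMIs, against 14.1% and 18.3% of all genes; the class had 20 cells, 18 of library 1 and 2 of library 2. In serous-macrophage-like cells, which express the peritoneal and pleural macrophage genes Prg4 and Alox15, 3 were higher and 3 lower (6.75% and 29.6% of all genes). In interstitial-macrophage-like cells, 103 of the 172, 1 was higher, Plin2, and 3 were lower, Fabp4, Gpihbp1 and Scd1 (11% and 22.1% of all genes); Lpl had a ratio of 0.635 there (0.498 to 0.798) and Fabp5 one of 0.711 (0.460 to 1.06).

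Lpl was found in 20 of 20 alveolar-macrophage-like cells, between 11.6 and 55.2 with a median of 20.2, and at a class rate of 24.8 (22.7 to 26.9), with 22.4 in library 1 and 34.7 in library 2. Serous-macrophage-like cells followed at 6.54 (5.88 to 7.25; 45 of 49 cells) and cluster 8 at 3.42 (3.01 to 3.86; 26 of 77 cells). Without its highest cell, cluster 8 stood at 2.52. Interstitial-macrophage-like (1.06, 0.839 to 1.33), fibroblast-like (0.931, 0.747 to 1.15) and cluster 6 cells (0.700, 0.507 to 0.943) were lower and near each other, and 1 UMI each was found among the T-cell-like and B-cell-like classes and 0 in the plasma-cell-like one. Lpl was 22.7-fold higher in alveolar-macrophage-like cells than in the other cells (20.4 to 25.2). G6pdx, B4galt5 and Gda were the genes most like it over the clusters (r of 0.96, 0.93 and 0.92).

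Plin2 was likewise found in 20 of 20 alveolar-macrophage-like cells, between 5.90 and 34.8, at a rate of 20.6 (18.7 to 22.5), with 20.5 in library 1 and 20.9 in library 2. Serous-macrophage-like cells (5.30, 4.71 to 5.94) and interstitial-macrophage-like cells (4.75, 4.26 to 5.28) overlapped, and cluster 8 lay below them at 3.11 (2.73 to 3.53). Endothelial-like cells had 0.998 (0.897 to 1.11), T-cell-like cells 0.844 (0.628 to 1.11) and fibroblast-like cells 0.720 (0.559 to 0.912). Plin2 was found in 40.9% of endothelial-like cells and 42.7% of the others. Rnpep, G6pdx and Ddhd1 followed it most closely (r of 0.94, 0.92 and 0.92).

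The binding proteins were found in some macrophage-like classes far more than in others. Fabp4 was found in 16 of 20 alveolar-macrophage-like cells at 9.24 (8.02 to 10.6) and in 41 of 49 serous-macrophage-like cells at 5.39 (4.79 to 6.04), but in 2 of 103 interstitial-macrophage-like cells, at 0.276 (0.169 to 0.427). It had 0 UMIs in the 17 epithelial-like, 24 plasma-cell-like, 82 B-cell-like and 155 T-cell-like cells. Fabp5 was found in 18 of 20 alveolar-macrophage-like cells at 7.02 (5.96 to 8.22), in cluster 8 at 1.46 (1.2 to 1.75) and in serous-macrophage-like cells at 0.859 (0.631 to 1.14). Among T-cell-like cells it was found in 36 of 155, at 0.744 (0.543 to 0.996): 29 of 101 in the cluster led by Il7r, Cd3g, Cxcr6 and Trdc and 7 of 54 in the cluster led by Ccl5 and Nkg7. In serous-macrophage-like cells 1 cell, from library 2, held 11 of the 47 Fabp5 UMIs. Over the clusters, Fabp4 was most like P2ry2, Plcb1 and 6430548M08Rik (r of 0.90, 0.90 and 0.89), 2 of which peaked in an endothelial-like cluster that owes its Fabp4 to 1 cell, and Fabp5 was most like Mvd, Timm10b and Eepd1 (r of 0.91, 0.89 and 0.88).

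Pparg, the receptor that alveolar macrophages need to mature, was found in 13 of 20 alveolar-macrophage-like cells, at 1.13 (0.733 to 1.67), with 1.12 in library 1 and 1.19 in library 2. It was 51.3-fold higher there than in the other cells (27.6 to 96.4), on 25 and 21 UMIs. It was found in 0 of 49 serous-macrophage-like cells (allowing up to 6.12%) and 0 of 103 interstitial-macrophage-like cells (allowing up to 2.91%). Lpl, Plin2 and Fabp4 had rates above 5 UMIs per 10000 in serous-macrophage-like cells, a class in which Pparg was not detectable at this depth. Whether these genes depend on Pparg there was not tested. Pparg followed Plet1, Slc39a2 and Rad54l over the clusters (r of 0.98, 0.98 and 0.97), each highest in the alveolar-macrophage-like cluster, Rad54l at a rate of 0.0453.

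Scd1, the desaturase, had its highest levels in neither endothelial-like nor macrophage-like cells. It was found in 36 of 82 B-cell-like cells at a rate of 1.04 (0.801 to 1.33), in 33 of 92 cluster 6 cells at 0.782 (0.576 to 1.04), in 9 of 17 epithelial-like cells at 0.763 (0.528 to 1.07) and in 48 of 121 fibroblast-like cells at 0.762 (0.596 to 0.960). The intervals of these 4 classes overlap, so no order among them is resolved. Endothelial-like cells had 0.0505 (0.0299 to 0.0797), and the 103 interstitial- and 49 serous-macrophage-like cells had 0 UMIs. Alveolar-macrophage-like cells held 2 UMIs in 1 of 20 cells. Its sister desaturase Scd2 did not follow it in every class, at 0.165 (0.0793 to 0.304) in B-cell-like cells, 1.29 (1.02 to 1.60) in cluster 6 and 0.910 (0.728 to 1.12) in fibroblast-like cells. Scd1 was most like Fam228b, Mnd1 and Setbp1 over the clusters (r of 0.96, 0.96 and 0.94). Fam228b and Mnd1 were scarce, with highest cluster rates of 0.0496 and 0.0993.

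Over the 13 clusters the 8 genes were compared by level, as a description over clusters that share libraries. Lpl correlated with Fabp4 at r = 0.88, with Plin2 at 0.86, with Fabp5 at 0.75 and with Pparg at 0.66. The value for Fabp4 includes an endothelial-like cluster whose Fabp4 level came mostly from a single cell. Cd36 correlated with Gpihbp1 at 0.76. Between the lipase and its anchor r was 0.02, and r was below 0 between Scd1 and each of the other 7.

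Within the endothelium, cells with and without a Cdkn2a UMI differed little in Cd36 and Plin2. Cd36 had a rate of 23.0 in the 328 cells with a Cdkn2a UMI, against 22.6 in the 276 without, a ratio of 1.02 (0.972 to 1.06). For Plin2 the rates were 1.02 with and 0.972 without, a ratio of 1.05 (0.842 to 1.30). Pparg did not pass the filter on low genes here. Of the other 7 genes, 0 were at least 2-fold higher in cells with Cdkn2a, against 2.6% of 10639 genes. At least 2-fold lower were 2, Fabp4 and Fabp5, against 4.78% of those 10639. Both counts draw on the single cell with most Fabp4, which had 0 Cdkn2a UMIs: it held 828 of the 846 Fabp4 UMIs and 15 of the 27 Fabp5 UMIs of the cells without Cdkn2a, against 1 and 10 UMIs in the cells with it. Cells with Cdkn2a were also deeper (median of 5746.5 UMIs, against 4627.5), and depth was not matched.

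Gpihbp1 and Lpl were lower in endothelial-like cells with Cdkn2a, and the ratio of Gpihbp1 was closer to 1 within each subtype. The Gpihbp1 rate was 4.14 with a Cdkn2a UMI, against 7.62 without, a ratio of 0.544 (0.497 to 0.595), and Lpl stood at 0.434 with, against 0.802 without, a ratio of 0.541 (0.407 to 0.717). Cdkn2a itself had a UMI in 276 of 457 Car4-high cells, against 52 of 147 Vwf-high cells. Within Car4-high cells the ratio of Gpihbp1 was 0.868 (0.707 to 1.07), and within Vwf-high cells 0.711 (0.642 to 0.787). Within the Car4-gated part of the Vwf-high set it was 0.811 (0.712 to 0.925), with rates of 11.1 in 46 cells with Cdkn2a and 13.7 in 35 without. Lpl had a ratio of 0.685 (0.503 to 0.928) within Vwf-high cells and 0.637 (0.426 to 0.953) within their Car4-gated part. In Car4-high cells it went the other way on few counts, with 19 UMIs in 276 cells with Cdkn2a, against 3 in 181 without (ratio of 3.54, 1.04 to 18.7). No library or subtype reached a 2-fold difference in Cd36; the furthest was Car4-high cells of library 2, at 22.3 with Cdkn2a in 106 cells, against 29.4 without in 26 cells (ratio of 0.760, 0.683 to 0.847), while library 1 gave 25 with, against 24.2 without (1.03, 0.968 to 1.10).

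**Figure D4:**
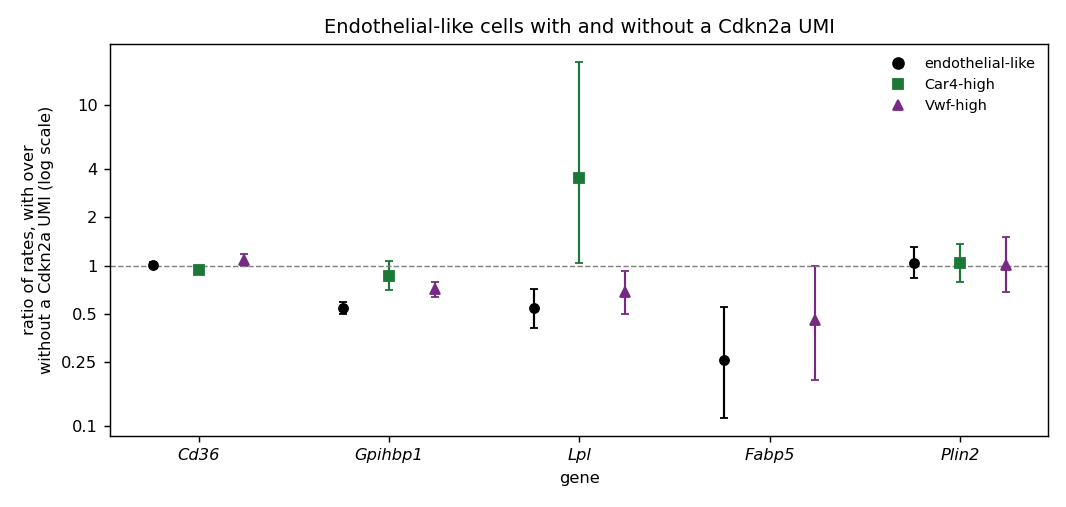
Ratio of rates in endothelial-like cells with over without a Cdkn2a UMI, on a log axis, for all 604 cells (black circles), Car4-high cells (green squares) and Vwf-high cells (purple triangles), with exact intervals; the dashed line marks equal rates. Cd36 and Plin2 lie near the line, Gpihbp1 is at 0.544 over all cells and at 0.868 and 0.711 within Car4-high and Vwf-high cells, and Fabp5 has no Car4-high point because it had 0 and 3 UMIs there.

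The wider pathway lists set the members in context, with counts and medians beside those of all genes (endothelial-like over other cells; 26% of genes higher, 23.2% lower, median log2 ratio of 0.41). Of the lipid droplet and intracellular lipolysis list, 6 of 17 genes compared were at least 2-fold higher in endothelial-like cells and 4 lower (median of 0.82). The 3 lipases that strip triglycerides inside the cell were all among the higher: Pnpla2, which starts the sequence, had 2.12 (1.97 to 2.28) in endothelial-like cells and 0.300 (0.258 to 0.346) in the others; Lipe, the hormone-sensitive lipase, 1.07 (0.963 to 1.18) and 0.0956 (0.0728 to 0.123); and Mgll, the monoglyceride lipase, 10.3 (9.92 to 10.6) and 0.509 (0.454 to 0.568). G0s2, an inhibitor of Pnpla2, had 0 UMIs in endothelial-like cells and a rate of 0.509 in the others, with an interval of the ratio up to 0.0204. Of the uptake and activation list, 4 of 14 were higher and 7 lower (median of -0.66), among them Cav1, the coat protein of caveolae, with 11.6 (11.2 to 11.9) in endothelial-like cells and 0.570 (0.512 to 0.633) in the others. The fatty acid transporters Slc27a1 and Slc27a3 were lower, with 0 and 4 UMIs in endothelial-like cells, against 43 and 72 in the others.

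Of the lipoprotein lipolysis and receptor list, 2 of 15 genes were higher in endothelial-like cells and 11 lower (median of -3.95). Lrp1, a receptor for lipoprotein remnants, had a rate of 0.00561 in endothelial-like cells and 2.42 in the others. The proteoglycan Sdc1 had 0.00841 in endothelial-like cells and 0.300 in the others, and Apoe 0.373 and 46.0. Among PPAR partners and regulators, 3 of 19 were higher and 6 lower (median of 0.21). Flt1, a receptor of the growth factor Vegfb that promotes endothelial fatty acid transport in the mouse, had 9.90 (9.58 to 10.2) in endothelial-like cells and 0.261 (0.222 to 0.304) in the others, whereas Meox2 had 0.00841 and 0.172, Cebpa 0.00561 and 0.429, and Nr1h3 0.00561 and 0.199. Of the synthesis list, 5 of 19 were higher and 4 lower (median of -0.27): Fasn, fatty acid synthase, had 1 UMI in endothelial-like cells and 85 in the others, and Acacb, whose product checks fatty acid entry into mitochondria, a rate of 0.280 and 0.0259. Mlxipl and Fads3 had 0.00280 and 0.0140 in endothelial-like cells, against 0.135 and 0.117. Of the oxidation list, 5 of 24 were higher and 3 lower (median of 0.51), with Cpt1a, the gate of mitochondrial import, at 1.19 (1.08 to 1.31) in endothelial-like cells and 0.404 (0.355 to 0.457) in the others, and Acadl at 1.82 (1.68 to 1.96) and 0.676 (0.612 to 0.744). Cpt2 had 0.135 and 0.0583, and Acads 0.118 and 0.280.

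Between the subtypes, 0 of 14 droplet genes and 0 of 21 oxidation genes differed 2-fold, 1 of 8 uptake genes was higher in Car4-high cells, and 2 of 14 regulators and 1 of 7 lipoprotein genes were lower, against 5.68% of all genes higher and 10.5% lower; counts this small cannot be told from that share. Acsl1, which activates fatty acids with coenzyme A, had 0.775 (0.667 to 0.895) in Car4-high cells and 0.300 (0.209 to 0.417) in Vwf-high cells. Nrp1, a co-receptor of Vegfb, had 20.4 (19.8 to 20.9) in Car4-high cells and 10.2 (9.66 to 10.8) in Vwf-high cells, just under the 2-fold line. Pnpla2 and Cpt1a were 1.68-fold (1.41 to 2.00) and 1.63-fold (1.29 to 2.06) higher in Car4-high cells. Hilpda, an inhibitor of Pnpla2, had 5.76 (5.46 to 6.07) in Car4-high cells and 9.07 (8.54 to 9.64) in Vwf-high cells, and Cav1 10.1 (9.68 to 10.5) and 14.7 (14 to 15.4). Rxra, the partner of Pparg, had 0.104 in Car4-high cells and 0.223 in Vwf-high cells. Of the synthesis list 1 of 16 was higher and 1 lower; the lower one, Thrsp, a lipogenic regulator, had 0 UMIs in Car4-high cells and 22 in Vwf-high cells.

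In alveolar-macrophage-like cells, 8 of 17 droplet genes and 8 of 24 oxidation genes were at least 2-fold higher than in the other cells, 6 of 15 lipoprotein genes, 7 of 19 regulators, 3 of 14 uptake genes and 3 of 19 synthesis genes, against 14.1% of all genes. Serous-macrophage-like cells, which shared Lpl, Plin2 and Fabp4 with them, had 0 of 17 droplet genes, 0 of 24 oxidation genes, 2 of 14 uptake genes, 2 of 15 lipoprotein genes, 2 of 19 regulators and 3 of 19 synthesis genes higher, against 6.75% of all genes. In the same class 8 of the 17 droplet genes and 3 of the 24 oxidation genes were lower, against 29.6% of all genes. The following genes of the lists were chosen after their values were seen. Fabp1, a binding protein known from liver, had a UMI in 16 of 20 alveolar-macrophage-like cells (rate of 6.07, 5.09 to 7.19) and in 0 of 49 serous-macrophage-like cells, while Fabp7, known from brain, had it in 32 of 49 serous-macrophage-like cells (2.28) and in 0 of 20 alveolar-macrophage-like cells. Cidec, which fuses lipid droplets, was found in 15 of 20 alveolar-macrophage-like cells and in 0 of the 1324 other cells. Apoe had its highest level in interstitial-macrophage-like cells, in 103 of 103 cells. Angptl4, an inhibitor of Lpl, was found mainly outside the endothelium, in 87 of 121 fibroblast-like cells (2.30) and 44 of 92 cluster 6 cells (1.22), and in 4 of 604 endothelial-like cells (0.0280).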

How the data were processed

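Droplet-based 3' RNA sequencing (10x Chromium, v3 kit, per the labels' protocols) was processed by the submitters with Cell Ranger 3.0.2 on mm10, per the submitters' processing notes. The deposited values are natural-log values: the authors scaled each cell to 10000 and applied the natural log of 1 plus that value, since back-transformed values sum to 10000 in every cell. Filters, doublet removal, annotation and the counting of shared or antisense reads are not stated in these sources. Back-transformed values were whole multiples of each cell's smallest value (largest deviation of 1.78e-10), so whole UMI counts were recovered from the deposited values. The depth was 2517 to 49467 UMIs per cell. No column of cells was left unused, and 0 barcodes were shared by the libraries.

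Cells were clustered with scanpy 1.11.5 (2000 variable genes without the 8 genes and 6 pathway lists, values limited to 10, 20 components, 15 neighbours, Leiden resolution of 0.5, igraph 0.11.9) into 13 clusters, named from 32 marker lists by detected markers and leading genes. A marker that is also one of the 8 genes or on a pathway list was not used for naming. The adipocyte list had no gene left to use, so no cluster was checked against it. Endothelial-like cells were clustered again in the same way into 4 subclusters, joined into 2 subtypes. A Car4 gate needs Car4 at 2 or more UMIs and above Vwf, and a Vwf gate the reverse. Doublets were not called; 28 cells (2.08%) that carried several markers of more than 1 lineage (3 or more markers at 2 or more UMIs) were kept, and left out in an alternative.

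A ratio is one of summed rates, with an exact conditional interval; a side at 0 was set to 3 counts, and no ratio is called where both sides had 3 or fewer. A gene was compared where at least 1% of the cells compared had a UMI, and "at least 2-fold" is the threshold for every count. Thinned shares are the expected share of cells with a UMI after drawing 2500 UMIs. Steps were tested on simulated Poisson counts of the more abundant genes, which do not cover scarce genes or levels that are uneven between cells. The 8 genes, the lists and the markers were chosen with earlier results of these data known. Named genes are the 8, with Car4, Vwf, Cdkn2a, Scd2 and mCherry, up to 4 genes per list with the largest ratio between endothelial-like and other cells and between subtypes (UMI in at least 5% of cells of a side), the 3 genes most like each of the 8 (Pearson's r of log2 rate plus 0.1) and no more than 5 leading genes per cluster; others are said to be chosen afterwards. Positions come from GENCODE (15363 of 15526 symbols, 99.0%), and promoters from RefSeq. Alternatives were another resolution, 30 components, lists kept, at least 4000 UMIs, either library, equal weight per cell, thinning, a 3-fold threshold, other gene filters and gated subtypes; leaving out the cell with most Fabp4, subtypes from the first clustering and values within subtypes were added after seeing the data.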

Additional observations from a re-analysis of the deposited data

How the results depend on the processing

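No paired analysis was possible because there is 1 group and the libraries carry no sample number. Macrophage-like classes had 5 of the 8 genes at least 2-fold higher under each of the 10 alternatives run. In endothelial-like cells the count was 3, and 2 in library 2 alone, with equal weight per cell, after thinning, at a 3-fold threshold and without the cell with most Fabp4. The gene lost was Fabp4, whose log2 ratio of 1.36 turned to -5.40 in library 2 alone, -3.22 after thinning and -4.11 without that cell. Between Car4-high and Vwf-high cells the count of higher genes was 0, and 1 with gated subtypes, where the same cell lies in the Car4 gate and Fabp4 turned to 3.50. The count of genes differing 2-fold with Cdkn2a was 2; it was 1 in library 2 alone, 4 with equal weight per cell and 0 in Car4-high cells of library 2, and the cause was not tested. Of the pathway genes 60 were called, 58 in library 1 alone and 42 at 3-fold. Among 339 log2 ratios of single genes under alternatives, 259 stayed close, 76 moved and 4 turned, all 4 those of Fabp4. Of 47 class rates, 11 moved by more than their interval without their highest cell. Depth limits the scarce genes most: Pparg had 46 UMIs in all, and library 2 held 2 alveolar- and 1 serous-macrophage-like cells.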

Other observations

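Some values belong to no comparison above. The 5 endothelial-like cells without a Cd36 UMI were 4 of library 1 and 1 of library 2. In cluster 8, Fabp4 was found in 1 of the 26 cells with Lpl and in 5 of the 51 without Lpl. In the same cluster, Plin2 had a rate of 9.70 in the 6 cells with Fabp4, against 2.72 in the 71 without. In serous-macrophage-like cells, Lpl had a rate of 7.17 in the 41 cells with Fabp4, against 2.80 in the 8 without. These counts are small and no test was run on them. Mlxipl, which encodes a carbohydrate-responsive regulator of lipid synthesis, was found in 38 of 49 serous-macrophage-like cells at a rate of 1.33 and in 0 of 20 alveolar-macrophage-like cells. Hilpda was found in 510 of 604 endothelial-like cells (6.84), 16 of 20 alveolar-macrophage-like cells (4.67), 19 of 49 serous-macrophage-like cells (3.14) and 40 of 155 T-cell-like cells (1.70).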
